A study of Mus musculus with 6 samples.

Results

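The genes described here are 10 nuclear genes of mitochondrial biogenesis, the process by which a cell makes more mitochondria, measured in C2C12 myotubes treated with kaempferol. They were taken by gene name from a count table of 54924 genes: the PGC-1 family coactivators Ppargc1a, Ppargc1b and Pprc1, the nuclear transcription factors Nrf1, Gabpa and Esrra, and the mitochondrial transcription genes Tfam, Tfb1m, Tfb2m and Polrmt. All 10 were found, and all 10 had enough reads to be tested among 14558 tested genes. C2C12 is a mouse skeletal muscle line whose myoblasts fuse into myotubes, cells with several nuclei, when serum is lowered, and kaempferol is a plant flavonol. The kaempferol group held 3 libraries of myotubes given 25 μM kaempferol for 24 h, and the control group held 3 libraries of myotubes without kaempferol, all after 6 days of differentiation and overnight reseeding. The sequencing addressed how kaempferol changes the transcriptome of muscle cells, and mitochondrial biogenesis was among the processes that the study followed with other assays. Nothing in the labels tells if replicate libraries were separate cultures, and the p-values below therefore measure the spread between these libraries, which may be technical.

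PGC-1α, the product of Ppargc1a, does not bind DNA itself but docks on transcription factors and brings in histone acetyltransferases and the Mediator complex, and in muscle it is known for linking exercise, cold and energy stress to oxidative metabolism. Among the factors it serves are nuclear respiratory factor 1 (Nrf1), GABPA (the DNA-binding subunit of nuclear respiratory factor 2, which is not the stress factor Nfe2l2) and the orphan receptor ERRα (Esrra), which switch on nuclear genes of the respiratory chain and of the mitochondrial transcription apparatus. That apparatus, made in the cytosol and imported, consists of the RNA polymerase POLRMT, the DNA-packaging factor TFAM and the initiation factor TFB2M, while TFB1M methylates ribosomal RNA of the mitochondrial ribosome.

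The 6 libraries held 16575790 to 18625272 counts each, and the median tested gene had 463 counts per library. Levels are given as CPM, the count of a gene relative to the total of its library, scaled by the TMM factors of edgeR, and changes as log2 fold changes of kaempferol over control from edgeR's quasi-likelihood test, with p-values adjusted by Benjamini-Hochberg over all tested genes and a gene called at an adjusted p under 0.05. By this rule 1647 genes were higher and 1840 were lower with kaempferol, with a median log2 fold change over all tested genes of -0.00047. With upper-quartile scaling factors the split was 1966 higher and 1424 lower. As a check of the labelled cell type, 15 of 18 myotube markers had enough counts to be tested, and embryonic myosin heavy chain Myh3 averaged 79.1 ± 3.20 CPM in kaempferol libraries and 79.3 ± 5.74 CPM in control libraries (SD, n = 3 each). Muscle creatine kinase Ckm, a late marker, was low at 3.84 ± 0.55 CPM in kaempferol libraries and 4.66 ± 0.62 CPM in control libraries. Markers of dividing cells were also present, at a higher summed level than the myotube markers in both groups. In control libraries the 8 markers of dividing cells summed to 2451 to 2583 CPM and the 18 myotube markers to 1270 to 1398 CPM. In kaempferol libraries the sums were 1846 to 1933 CPM and 1246 to 1317 CPM, without scaling for gene length. The difference between the groups in markers of dividing cells is given further on.

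Promoter DNA of these genes is shown first, since several of them are themselves textbook targets of NRF1 or GABPA. RefSeq promoter windows of mouse build GRCm38.p6, running from 250 bases before to 50 bases after the annotated start, were at hand for 9 of the 10 genes (all but Ppargc1b), and Nrf1 had a pair of windows. The core of the site bound by NRF1 was searched as the exact letters GCATGCGC on both strands. In the same way GABPA was searched as CCGGAAG, the ERR receptors were searched as AAGGTCA, the cAMP response element was searched as TGACGTCA, and the TATA box was searched as TATAAA. No printed match overlapped another. The 250 bases before the start are printed 5′ to 3′ on the strand of the gene for Pprc1 and Nrf1, whose mRNA was called lower with kaempferol, and for Tfam, Polrmt and Esrra, as examples of windows with matches upstream of the start. Capitals mark the matches.
Pprc1, chr19:46056289-46056538, plus strand: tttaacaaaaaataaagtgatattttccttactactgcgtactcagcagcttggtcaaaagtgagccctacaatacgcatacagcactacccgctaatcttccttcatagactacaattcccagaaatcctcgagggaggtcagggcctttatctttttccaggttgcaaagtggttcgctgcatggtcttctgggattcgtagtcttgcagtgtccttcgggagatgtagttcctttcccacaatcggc
Nrf1, chr6:30047738-30047987, plus strand: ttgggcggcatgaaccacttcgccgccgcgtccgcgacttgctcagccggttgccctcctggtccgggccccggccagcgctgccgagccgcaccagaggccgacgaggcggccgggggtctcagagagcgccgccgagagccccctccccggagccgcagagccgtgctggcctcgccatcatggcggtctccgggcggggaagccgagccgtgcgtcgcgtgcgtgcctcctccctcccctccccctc
Tfam, chr10:71238045-71238294, minus strand: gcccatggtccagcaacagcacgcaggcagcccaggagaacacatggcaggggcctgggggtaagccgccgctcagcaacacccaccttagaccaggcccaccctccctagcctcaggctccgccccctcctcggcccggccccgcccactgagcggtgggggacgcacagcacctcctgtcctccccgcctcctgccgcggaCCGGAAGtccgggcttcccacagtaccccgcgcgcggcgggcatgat
Polrmt, chr10:79746582-79746831, minus strand: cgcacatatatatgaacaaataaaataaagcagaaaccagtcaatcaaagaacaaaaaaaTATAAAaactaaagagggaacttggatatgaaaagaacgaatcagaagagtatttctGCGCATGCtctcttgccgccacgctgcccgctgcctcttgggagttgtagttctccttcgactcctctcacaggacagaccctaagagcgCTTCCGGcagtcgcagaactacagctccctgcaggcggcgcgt
Esrra, chr19:6921809-6922058, minus strand: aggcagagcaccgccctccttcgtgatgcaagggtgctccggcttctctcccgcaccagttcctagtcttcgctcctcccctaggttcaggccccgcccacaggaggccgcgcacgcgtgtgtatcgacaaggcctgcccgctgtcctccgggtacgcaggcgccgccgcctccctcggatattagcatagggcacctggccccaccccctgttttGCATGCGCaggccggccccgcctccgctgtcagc

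The NRF1 letters lay in the windows of 3 of 9 genes, Esrra (first base 34 bases before the start), Polrmt (133 bases before, on the other strand) and Tfb2m (after the start), where 2.71% of all 32851 promoter windows hold them. The GABPA letters lay in those of Tfam (first base 47 bases before the start), Polrmt (43 before, on the other strand) and Gabpa (93 before, on the other strand), against 8.86% of all windows, so that Polrmt had both. The TATA letters were found for Polrmt (first base 190 bases before the start) and in the second window of Nrf1 (96 before, on the other strand), against 13.6% of all windows. That second window lies 28333 bases inside the gene. No window of these genes held the ERR letters (4.72% of all windows) or the cAMP response element (1.79%). The windows of Pprc1, Ppargc1a and Tfb1m and the first window of Nrf1 held none of the 5 motifs. In composition, the 250 bases before the start were 76.0% G or C for the first window of Nrf1, with 33 CG pairs. For Pprc1 they were 45.2% G or C, with 8 CG pairs, and the median over all windows was 52.4%. The RefSeq start of Pprc1 lies 11653 bases from the gene start in the count table. A match of letters is a description of the window and not a bound site.

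With kaempferol, edgeR called 2 of 10 lower, Pprc1 and Nrf1, where 12.6% of all tested genes were called lower, and 0 of 10 higher, where 11.3% of all tested genes were called higher. At an unadjusted edgeR p under 0.05 the counts were 3 lower (Ppargc1b in addition) and 0 higher. Of the 14558 tested genes, 2677 were lower and 2439 higher at that threshold. DESeq2 with adjusted p likewise gave 2 of the 10 lower and 0 higher, beside 1592 lower and 1401 higher among all tested genes. The 3 kaempferol libraries lay outside the range of the 3 control libraries for 3 of 10 genes, all lower (Ppargc1b, Pprc1 and Nrf1), against 38.2% of all tested genes without overlap in either direction. Over the 10 genes the log2 fold change had a median of -0.083, with 4 above 0 and 6 below, and 4 of them changed by less than 0.15, the median size of the log2 change over all tested genes. The share of genes called among the 10 was near that of the whole table, so the count is no result about these genes. RNA was measured in bulk, so fewer cells of a type and less RNA per cell cannot be told apart for any gene below.

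**Figure D1:**
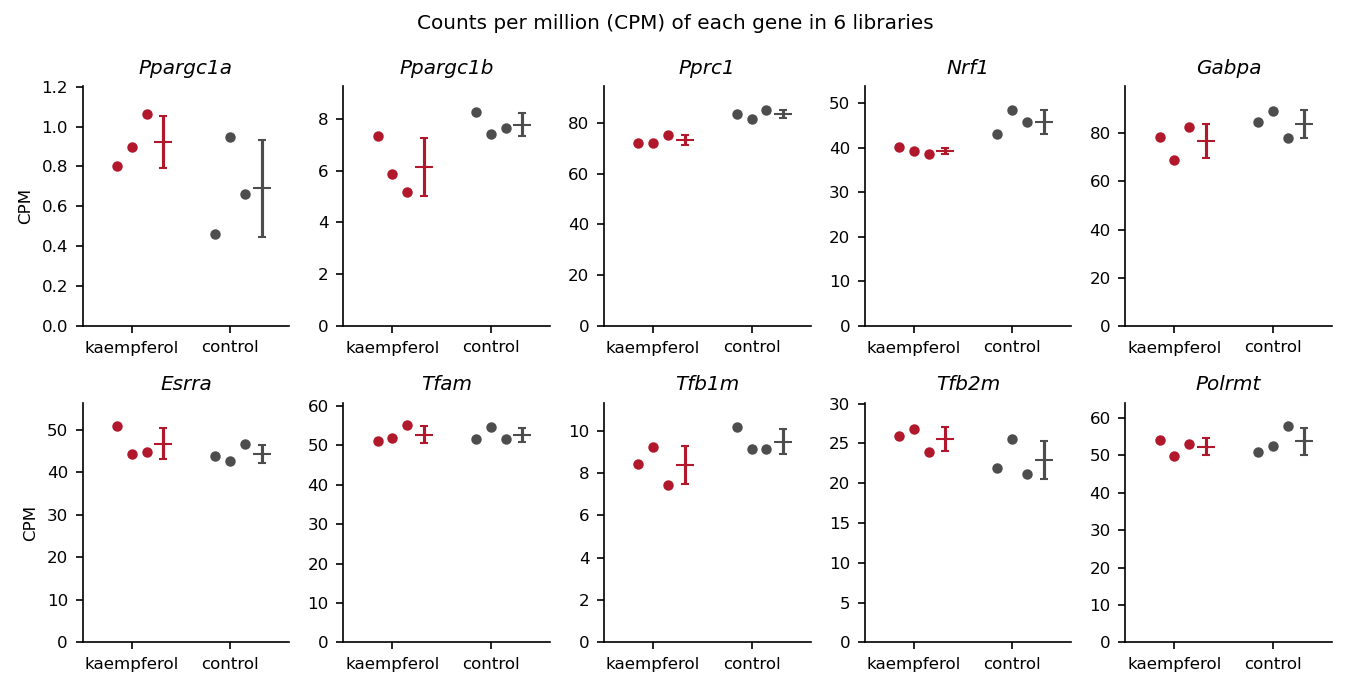
CPM of each of the 10 genes (vertical axis, from 0, its own scale per panel) in the 3 kaempferol libraries (red, left) and the 3 control libraries (grey, right). Each dot is 1 library, and the bar beside the dots is the mean with its SD. The groups are apart for Ppargc1b, Pprc1 and Nrf1, and overlap for the other 7 genes.

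Among the coactivators, Pprc1 encodes PRC, a PGC-1-related coactivator that is induced by serum in dividing cells, and lies at chromosome 19, positions 46044886 to 46072915 (mm10, plus strand). It had 72.0, 71.9 and 75.4 CPM in the kaempferol libraries, against 83.7, 81.7 and 85.1 CPM in the control libraries. Every kaempferol library was below every control library, and the gap was wider than the spread within either group. The log2 fold change was -0.19 (SE 0.050, 95% interval -0.30 to -0.09), or 0.88 times the control level (edgeR's quasi-likelihood test, adjusted p = 0.00987). Without control replicate 1 the call was lost (edgeR adjusted p = 0.0516). The log2 fold change was then -0.18, with an SE of 0.062.

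Ppargc1b, which encodes PGC-1β, a coactivator close to PGC-1α that keeps up basal mitochondrial content, lies at chromosome 18, positions 61298136 to 61400431 (minus strand). Its level was 7.35, 5.87 and 5.16 CPM in kaempferol libraries and 8.26, 7.40 and 7.65 CPM in control libraries. The groups did not overlap, but kaempferol replicate 1 lay just under control replicate 2, and the kaempferol libraries were more spread. The log2 fold change of -0.35 (SE 0.15, 95% interval -0.66 to -0.03) did not pass edgeR's test, with an adjusted p of 0.105. Without kaempferol replicate 1 it was -0.50, with an adjusted p of 0.0351.

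Ppargc1a, at chromosome 5, positions 51454250 to 51567726 (minus strand), was the scarcest of the 10. It had 14, 15 and 20 counts in the kaempferol libraries and 8, 17 and 11 counts in the control libraries, or 0.80, 0.90 and 1.06 CPM against 0.46, 0.95 and 0.66 CPM. Control replicate 2 lay above 2 of the 3 kaempferol libraries. The log2 fold change was 0.41 (SE 0.38, 95% interval -0.39 to 1.22, edgeR adjusted p = 0.483), and counting error alone gives an SE of 0.32. The interval reaches from 0.76 to 2.33 times the control level, so at this depth the counts do not tell a fall of Ppargc1a from a rise within it.

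**Figure D2:**
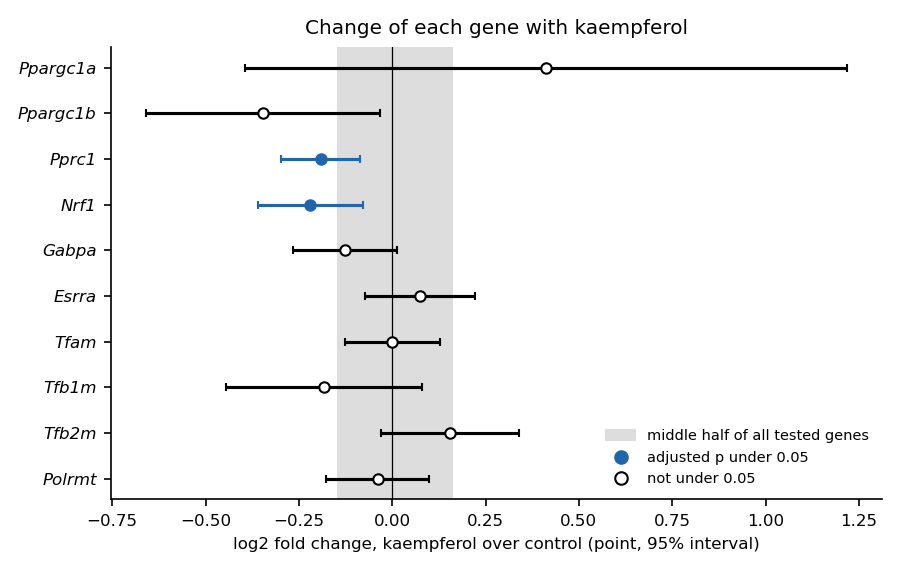
log2 fold change of kaempferol over control (horizontal axis) for each of the 10 genes, with its 95% interval from edgeR's quasi-likelihood test. Filled blue points have an adjusted p under 0.05 (Pprc1 and Nrf1), open points do not, and the grey band spans the quartiles of all tested genes, -0.14 to 0.16. The interval of Ppargc1a, from -0.39 to 1.22, is the widest of the 10.

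Of the nuclear transcription factors, Nrf1 fell with kaempferol. It encodes nuclear respiratory factor 1, which binds GC-rich promoters of respiratory chain genes and many housekeeping genes, and lies at chromosome 6, positions 30047988 to 30153458 (plus strand). The kaempferol libraries had 40.05, 39.2 and 38.6 CPM and the control libraries 42.9, 48.4 and 45.8 CPM. The kaempferol libraries lay close together, below a more spread control group. The log2 fold change was -0.22 (SE 0.067, 95% interval -0.36 to -0.08), or 0.86 times the control level (edgeR adjusted p = 0.0233). The call did not survive leaving out control replicate 2 (log2 fold change -0.17, adjusted p = 0.128), kaempferol replicate 2 (-0.22, adjusted p = 0.0651) or kaempferol replicate 3 (-0.20, adjusted p = 0.0663).

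Gabpa, at chromosome 16, positions 84834925 to 84863779 (plus strand), had 78.6, 69.1 and 82.6 CPM in kaempferol libraries and 84.5, 89.1 and 77.9 CPM in control libraries. The groups overlapped, and the log2 fold change of -0.13 (SE 0.066, 95% interval -0.27 to 0.01) did not pass the test (edgeR adjusted p = 0.181). Esrra, the partner through which PGC-1α reaches many genes of fatty acid oxidation and the respiratory chain, lies at chromosome 19, positions 6910977 to 6921813 (minus strand). It had 50.8, 44.3 and 44.8 CPM in kaempferol libraries and 43.7, 42.6 and 46.6 CPM in control libraries. Only kaempferol replicate 1 stood above the control range, and the log2 fold change was 0.07 (SE 0.070, 95% interval -0.07 to 0.22, edgeR adjusted p = 0.490).

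The genes of the mitochondrial transcription apparatus gave no call in either direction. Tfam, at chromosome 10, positions 71225464 to 71238280 (minus strand), had 51.0, 51.7 and 55.1 CPM in kaempferol libraries and 51.5, 54.6 and 51.7 CPM in control libraries. The groups covered the same range, and the log2 fold change was 0.00072 (SE 0.061, edgeR adjusted p = 0.995). Its 95% interval, -0.13 to 0.13, bounds a change of Tfam mRNA between 0.92 and 1.09 times the control level, the narrowest interval after that of Pprc1. Over the 12 alternative settings the log2 fold change of Tfam stayed between -0.028 and 0.034 and changed sign in 4 of them, among them the fit with no filter on low counts.

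Polrmt, also on chromosome 10 (positions 79736123 to 79746581, minus strand), had 54.1, 49.7 and 53.1 CPM in kaempferol libraries and 50.9, 52.5 and 57.8 CPM in control libraries. Its log2 fold change was -0.039 (SE 0.065, 95% interval -0.18 to 0.10, edgeR adjusted p = 0.722), and it turned to 0.013 without control replicate 3. Tfb2m, at chromosome 1, positions 179528055 to 179546267 (minus strand), had 26.0, 26.8 and 23.9 CPM in kaempferol libraries and 21.9, 25.6 and 21.2 CPM in control libraries. Control replicate 2 reached into the kaempferol range, and the log2 fold change of 0.16 (SE 0.087, 95% interval -0.03 to 0.34) did not pass the test (edgeR adjusted p = 0.220). Tfb1m, the methyltransferase gene, lies at chromosome 17, positions 3519256 to 3557781 (minus strand). It had 8.45, 9.22 and 7.44 CPM in kaempferol libraries and 10.2, 9.13 and 9.16 CPM in control libraries, with a log2 fold change of -0.18 (SE 0.12, 95% interval -0.45 to 0.08, edgeR adjusted p = 0.321). Kaempferol replicate 2 lay inside the control range.

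Levels of different genes were set side by side as CPM per kilobase (kb) of the gene length in the count table, which ran from 2539 bases for Esrra to 10282 bases for Nrf1. By this length Esrra was the highest, at 18.4 ± 1.43 CPM per kb in kaempferol libraries and 17.5 ± 0.80 CPM per kb in control libraries (SD, n = 3 each). Gabpa followed at 13.5 ± 1.22 and 14.7 ± 1.00, Tfam at 11.9 ± 0.49 and 11.9 ± 0.38, Polrmt at 11.2 ± 0.49 and 11.5 ± 0.78, and Pprc1 at 9.73 ± 0.27 and 11.1 ± 0.23 CPM per kb in kaempferol and control libraries. Below them stood Tfb2m at 9.11 ± 0.54 and 8.17 ± 0.84, Nrf1 at 3.82 ± 0.07 and 4.44 ± 0.26, Tfb1m at 2.32 ± 0.25 and 2.63 ± 0.16, Ppargc1b at 1.54 ± 0.28 and 1.95 ± 0.11, and Ppargc1a at 0.14 ± 0.02 and 0.10 ± 0.04 CPM per kb. The order of these means was the same in both groups. Neighbours in it whose libraries overlapped were Gabpa and Tfam in the kaempferol group only, Tfam and Polrmt in both groups, and Polrmt and Pprc1 in the control group only.

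Within the PGC-1 family, Pprc1 thus made up most of the mRNA per length. It took 83.0%, 85.6% and 87.3% of the summed CPM per kb of the 3 coactivators in the kaempferol libraries and 83.9%, 84.5% and 84.9% in the control libraries. Ppargc1b took 16.0%, 13.2% and 11.2% in kaempferol libraries and 15.6%, 14.4% and 14.4% in control libraries. Ppargc1a, the best known member, took 1.06%, 1.22% and 1.40% in kaempferol libraries and 0.53%, 1.12% and 0.75% in control libraries. The shares of the groups overlapped for all 3 genes. Table lengths equalled the exonic length in GENCODE M21 for 8 of the 10 genes. For Pprc1 the table has 7516 bases against 6284 in GENCODE M21, and for Esrra 2539 against 4387, and with these lengths, an alternative chosen after seeing the data, the order changed. Esrra then had 10.6 ± 0.83 CPM per kb in kaempferol libraries and 10.1 ± 0.46 CPM per kb in control libraries, below Gabpa, Tfam, Pprc1 and Polrmt, and Gabpa was the highest. Pprc1 then had 11.6 ± 0.32 CPM per kb in kaempferol libraries and 13.3 ± 0.28 CPM per kb in control libraries, above Tfam in the control group.

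**Figure D3:**
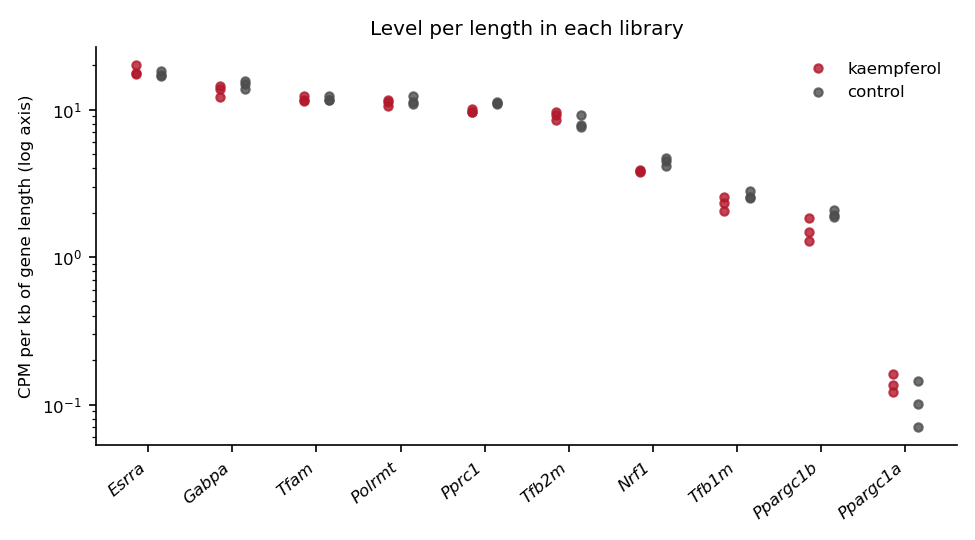
CPM per kb of gene length (vertical axis, log scale) of the 10 genes in each library, kaempferol in red on the left of each pair and control in grey on the right, ordered by the control mean, with the lengths of the count table. By these lengths levels run from 18.4 and 17.5 CPM per kb for Esrra down to 0.14 and 0.10 CPM per kb for Ppargc1a in kaempferol and control libraries.

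Several of the 10 genes share a start region or exonic sequence with a neighbour, and whether the counting used strand is not given in the sources used here. Shared exonic bases are those of GENCODE M21. Its exonic length differs from the length in the count table for Pprc1 and Esrra, so the bases counted for these genes may differ. Gabpa starts 700 bases from the start of Atp5j, an ATP synthase subunit gene on the other strand, and shares 397 exonic bases (6.98% of its own) with it. Atp5j had a log2 fold change of 0.07 (edgeR adjusted p = 0.443). Pprc1 shares 177 exonic bases (2.82%) with Ldb1, a LIM-domain-binding cofactor gene on the other strand that had a log2 fold change of 0.04 (adjusted p = 0.703). Ldb1 starts 328 bases from the start of Pprc1 in the count table. The RefSeq start of Pprc1, whose promoter is printed above, lies 11653 bases from that table start. Tfb2m starts 103 bases from the divergent gene Cnst, with a log2 fold change of -0.06 (adjusted p = 0.600), and shares no exonic bases with it. Tfb1m shares 142 exonic bases with Tiam2, a Rac exchange factor gene on the other strand. Tiam2 was lower with kaempferol, at 74.9 ± 3.28 CPM in kaempferol libraries and 86.0 ± 1.71 CPM in control libraries (SD, n = 3 each, log2 fold change -0.20, adjusted p = 0.0087), so counts of Tfb1m are uncertain to that extent.

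Esrra shares 164 exonic bases with its neighbours Trmt112 and Mir6990, and Trmt112, the activating subunit of several methyltransferases, had a log2 fold change of -0.10 (edgeR adjusted p = 0.372). Among the 10 genes, 1 has a near-identical copy at the limits used (alignments of 100 bases or more that are 95% identical or better and span 50% of the shorter of both transcripts). This is Tfb2m, whose copy Gm1818, annotated as an unprocessed pseudogene at chromosome 12, positions 48555308 to 48559885, matches over 1187 bases at 99.3% identity. Gm1818 was counted at 4.48, 3.41 and 3.30 CPM in kaempferol libraries and 3.76, 3.67 and 2.59 CPM in control libraries, so reads of Tfb2m may have been split between the loci. The summed level of both was 30.5, 30.2 and 27.2 CPM in kaempferol libraries and 25.7, 29.3 and 23.8 CPM in control libraries, and the groups overlapped as they did for Tfb2m alone.

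For the called genes, the tested genes with the most similar pattern over the 6 libraries were found by the root mean square difference of centred log2 CPM. For Pprc1 they included Arid1b (a subunit of the BAF chromatin remodelling complex, difference 0.0118) and Soga3 (0.0169). Soga3 itself was not called (log2 fold change -0.19, edgeR adjusted p = 0.302). For Nrf1 they were Tra2b (a splicing factor, 0.0210), Ddx56 (an RNA helicase of ribosome assembly, 0.0217) and Sms (spermine synthase, 0.0232). The 6 libraries form 2 groups, so this likeness takes in the difference between the groups.

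The other genes of the pathway were described by lists, whose counts are read against the 11.3% of tested genes called higher and the 12.6% called lower. Of 26 genes listed for replication and transcription of mitochondrial DNA, 5 were higher and 2 lower, with a median log2 fold change of 0.09 against -0.00047 over all tested genes. The helicase gene Twnk was higher, with a log2 fold change of 0.24 (edgeR adjusted p = 0.0472). The pyrimidine carrier Slc25a33 had 7.35, 7.25 and 7.12 CPM in kaempferol libraries and 5.66, 5.29 and 5.42 CPM in control libraries, a log2 fold change of 0.41 (adjusted p = 0.0376). Mterf4 rose by 0.36 (adjusted p = 0.0237), and the nuclease gene Endog by 0.46 (adjusted p = 0.0383). Mterf4 is counted in this list, although with a partner methyltransferase it acts on the large mitochondrial ribosomal subunit. Polg, the catalytic subunit of the mitochondrial DNA polymerase, moved the other way: it had 61.9, 62.0 and 61.7 CPM in kaempferol libraries and 71.4, 71.9 and 74.6 CPM in control libraries (log2 fold change -0.23, adjusted p = 0.00362). Lig3, the DNA ligase of mitochondria and nucleus, had a log2 fold change of -0.21 (adjusted p = 0.0453). Other scaling factors and filters gave 4 or 5 higher calls and DESeq2 gave 2. Leaving out 1 library gave fewer, from 0 without kaempferol replicate 2 to 3 without kaempferol replicate 3, with 1 without control replicate 1 or kaempferol replicate 1, and 2 without control replicate 2 or control replicate 3. Each of the fits that left out a library, but the one without kaempferol replicate 3, gave 1 lower call.

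Of 20 tested genes for processing and stability of mitochondrial RNA, 1 was higher and 1 lower, with a median log2 fold change of 0.05. Rexo2, an oligoribonuclease, averaged 133 ± 7.63 CPM in kaempferol libraries and 118 ± 2.41 CPM in control libraries (SD, n = 3 each, log2 fold change 0.18, edgeR adjusted p = 0.0159). Fastkd3, a mitochondrial RNA-binding protein, averaged 12.7 ± 0.99 CPM in kaempferol libraries and 16.1 ± 1.61 CPM in control libraries (log2 fold change -0.34, adjusted p = 0.0255). Without control replicate 3 or kaempferol replicate 1 neither direction had a call, without kaempferol replicate 2 there was 0 higher, without control replicate 2 there were 2 higher and 0 lower, and without kaempferol replicate 3 there were 3 higher.

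Of 30 tested partners and activators of the PGC-1 coactivators, 2 were higher and 8 lower, with a median log2 fold change of -0.12. The lower genes included general coactivators: the histone acetyltransferase gene Ep300 had 127, 131 and 149 CPM in kaempferol libraries and 175, 166 and 168 CPM in control libraries, a log2 fold change of -0.33 (edgeR adjusted p = 0.000311). Its relative Crebbp had a log2 fold change of -0.28 (adjusted p = 0.0116), the arginine methyltransferase gene Prmt1 -0.27 (adjusted p = 0.00119), and Creb1, which drives Ppargc1a transcription in response to cAMP, -0.27 (adjusted p = 0.00516). Hcfc1, the host cell factor, a cofactor that binds PRC and GABP, had 238, 233 and 259 CPM in kaempferol libraries and 293, 298 and 305 CPM in control libraries (log2 fold change -0.30, adjusted p = 0.000198).

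Gabpb2, one of the genes for the activating subunit that pairs with GABPA, was the most reduced of the called partners. It had 83.8, 88.9 and 93.1 CPM in kaempferol libraries and 119.9, 120.6 and 120.9 CPM in control libraries, with no overlap and a log2 fold change of -0.44 (edgeR adjusted p = 2.94e-06). Gabpb1, the gene for the other activating subunit, averaged 29.1 CPM in kaempferol libraries and 31.4 CPM in control libraries and did not pass the test (log2 fold change -0.11, adjusted p = 0.394). The 2 higher partners were Lpin1, a phosphatidate phosphatase that also acts as a coactivator with PGC-1α, and Ppp3ca, a catalytic subunit of calcineurin, which activates MEF2 in muscle. Lpin1 had 28.7, 29.8 and 31.5 CPM in kaempferol libraries and 18.9, 18.5 and 17.5 CPM in control libraries (log2 fold change 0.71, adjusted p = 2.83e-06). Ppp3ca averaged 210 ± 8.23 CPM in kaempferol libraries and 150 ± 4.16 CPM in control libraries (SD, n = 3 each, log2 fold change 0.48, adjusted p = 6e-07). The count of lower partners was 5 without control replicate 2 and 5 without kaempferol replicate 2.

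Sirt1, a deacetylase that acts on PGC-1α, did not pass the test. It averaged 27.6 CPM in kaempferol libraries and 31.2 CPM in control libraries (log2 fold change -0.18, edgeR adjusted p = 0.0869), and neither did Prkaa2, a catalytic subunit of AMPK, which averaged 7.02 CPM in kaempferol libraries and 5.70 CPM in control libraries (log2 fold change 0.30, adjusted p = 0.162). Of 14 tested repressors of the PGC-1 coactivators or of their transcription, 2 were higher and 3 lower, with a median log2 fold change of -0.01. Tob1, an antiproliferative protein, averaged 67.8 ± 4.90 CPM in kaempferol libraries and 47.0 ± 4.49 CPM in control libraries (log2 fold change 0.53, adjusted p = 3.47e-05). The class IIa deacetylases split, with Hdac4 higher by 0.42 (adjusted p = 9.52e-06) and Hdac5 at a log2 fold change of -0.28 (adjusted p = 0.00137). The corepressor gene Sin3a had a log2 fold change of -0.29 (adjusted p = 0.000849), and Nrip1, a corepressor of the ERR receptors, had 0.01 (adjusted p = 0.941).

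**Figure D4:**
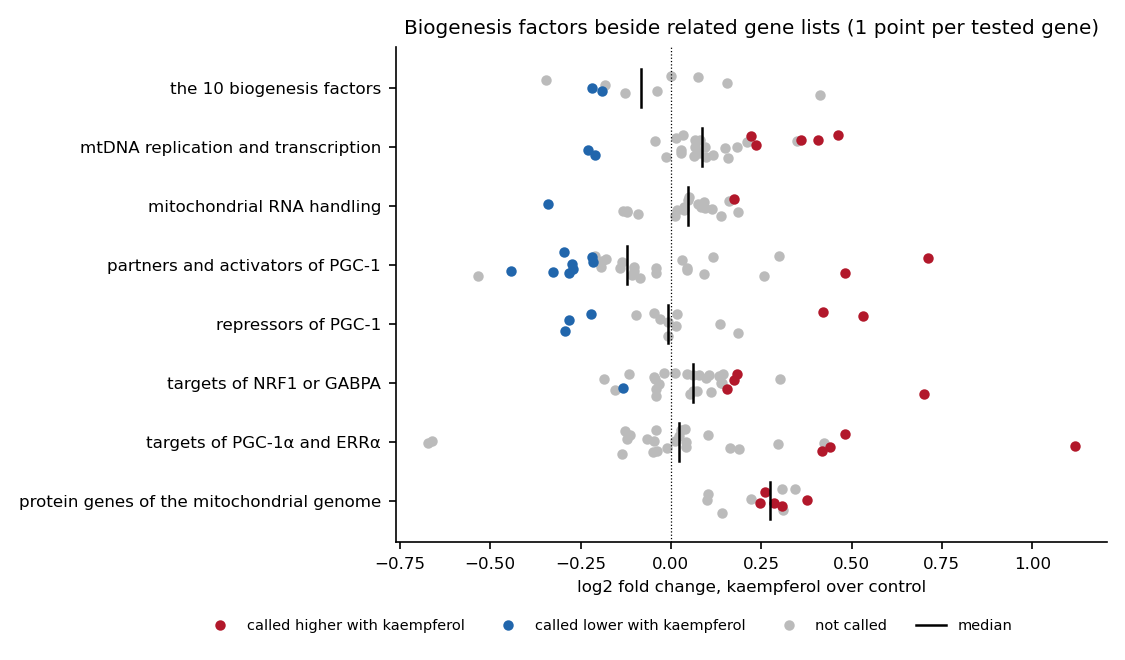
log2 fold change of kaempferol over control (horizontal axis) of every tested gene in the 10 biogenesis factors and in related lists (1 point per gene, vertical scatter within a row has no meaning). Red points were called higher, blue points lower, grey points were not called, and the black bar is the median, which is -0.083 for the 10 factors and 0.27 for the protein genes of the mitochondrial genome.

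Of 29 tested targets of NRF1 or GABPA, 4 were higher (13.8%) and 1 lower (3.45%), beside 11.3% and 12.6% of all tested genes, with a median log2 fold change of 0.06. Alas1, the first enzyme of haem synthesis, had 48.7, 50.8 and 46.9 CPM in kaempferol libraries and 32.01, 28.2 and 29.9 CPM in control libraries, with no overlap (log2 fold change 0.70, edgeR adjusted p = 8.6e-07). The import receptors Tomm70a and Tomm20 had log2 fold changes of 0.18 and 0.17 (adjusted p = 0.00804 and 0.00740). Cytochrome c, Cycs, averaged 150 CPM in kaempferol libraries and 154 CPM in control libraries and did not pass the test (log2 fold change -0.04, adjusted p = 0.597). Atp5b, the β subunit of ATP synthase, averaged 1637 ± 80.8 CPM in kaempferol libraries and 1796 ± 89.2 CPM in control libraries (SD, n = 3 each, log2 fold change -0.13, adjusted p = 0.0460), and it was the 1 lower call. This call was lost without control replicate 1, control replicate 3, kaempferol replicate 2 or kaempferol replicate 3, which each gave 0 lower targets, and with upper-quartile factors.

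Of 27 tested targets of PGC-1α and ERRα, 4 were higher (14.8%) and 0 lower by edgeR, with a median log2 fold change of 0.02. Without kaempferol replicate 1 or kaempferol replicate 3 there was 1 lower call. DESeq2 gave 4 higher and 0 lower, beside 1401 higher and 1592 lower among all tested genes. At an unadjusted edgeR p under 0.05, 7 were higher and 3 lower, beside 2439 higher and 2677 lower of the 14558 tested genes. Pdk4, the kinase that turns off pyruvate dehydrogenase in fasting and exercise, had 112, 128 and 120 CPM in kaempferol libraries and 53.0, 56.4 and 56.9 CPM in control libraries. The kaempferol libraries were all far above the control range, with a log2 fold change of 1.12 (SE 0.056, adjusted p = 6.73e-11). Acadm, medium-chain acyl-CoA dehydrogenase of fatty acid oxidation, had a log2 fold change of 0.42 (adjusted p = 1.65e-06), Vegfa, the angiogenic factor, 0.44 (adjusted p = 1.16e-06), and Ldhb, the heart-type lactate dehydrogenase subunit, 0.48 (adjusted p = 0.0116). Cs, the gene of citrate synthase, averaged 402 CPM in kaempferol libraries and 413 CPM in control libraries (log2 fold change -0.04, adjusted p = 0.547). Slc2a4, the insulin-responsive glucose transporter GLUT4, had 12, 4 and 4 counts in kaempferol libraries and 4, 10 and 12 counts in control libraries and was too scarce to be tested, as were Cpt1b, Ckmt2, Ucp3 and Cd36.

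Transcripts of the mitochondrial genome, the template of the TFAM, TFB2M and POLRMT machinery, took a larger share of the reads with kaempferol. Its genes held 1.94%, 1.93% and 2.09% of all counts in the kaempferol libraries and 1.70%, 1.72% and 1.56% in the control libraries, without overlap. Of 12 tested protein-coding genes, 5 were higher and 0 lower by edgeR, with a median log2 fold change of 0.27. DESeq2 gave 5 higher and 0 lower, beside 1401 higher and 1592 lower among all tested genes. At an unadjusted edgeR p under 0.05, 9 were higher and 0 lower, beside 2439 higher and 2677 lower of the 14558 tested genes. mt-Cytb, the cytochrome b subunit of complex III, had 3721, 3831 and 3994 CPM in kaempferol libraries and 3218, 3174 and 3075 CPM in control libraries (log2 fold change 0.29, adjusted p = 3.81e-05). mt-Nd4 and mt-Nd6, subunits of complex I, had log2 fold changes of 0.31 and 0.38 (adjusted p = 0.000307 and 0.000777), and mt-Co1, of complex IV, had 0.25 (adjusted p = 0.000633). With upper-quartile factors 9 of the 12 were called higher. mt-Nd6 is read from the opposite strand to the others, so without a known strand setting its counts are uncertain, and copies of mitochondrial DNA in the nuclear genome were not searched for.

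Cell type markers moved beside these results. All 8 markers of dividing cells were lower, and their summed level was 1846 to 1933 CPM in kaempferol libraries and 2451 to 2583 CPM in control libraries. Mki67 averaged 393 ± 34.2 CPM in kaempferol libraries and 665 ± 38.3 CPM in control libraries (SD, n = 3 each, log2 fold change -0.76, edgeR adjusted p = 2.79e-08). Of 15 tested myotube markers, 2 were higher and 3 lower, and their list summed to 1246 to 1317 CPM in kaempferol libraries and 1270 to 1398 CPM in control libraries. Of 6 tested myoblast markers, 2 were lower (Cd34 and Notch3) and 4 were not called, with a summed level of 319 to 344 CPM in kaempferol libraries and 365 to 376 CPM in control libraries. No adipocyte marker could be tested, 4 of 7 were at 0 in all libraries, and their sum was 0.53 to 0.86 CPM in kaempferol libraries and 0.12 to 0.39 CPM in control libraries. Of the fibroblast markers, Pdgfra was higher and Dcn lower, with a summed level of 65.7 to 74.9 CPM in kaempferol libraries and 55.7 to 61.5 CPM in control libraries. The part of the dividing-cell difference in the lower levels of Pprc1 and Nrf1, and in those of the coactivator partners, was not tested.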

How the data were processed

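mRNA of C2C12 myotubes was sequenced in 3 kaempferol and 3 control libraries. RNA was extracted with TRIzol, selected by poly(A), and random hexamers primed the cDNA. The authors deposited raw read counts per gene as whole numbers, and the submitters' processing notes name featureCounts 1.5.0-p3, HISAT2 2.0.5 and fastp, with StringTie 1.3.3b, DESeq2 1.20.0 and build mm10. Labels of the kaempferol libraries spell the line C2C13, and all libraries carry a treatment tag that reads dedifferentiation. Titles were followed.

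Counts were analysed with edgeR 4.0.16 in R 4.3.3. Genes passed its default filter (minimum count 10, minimum total 15), TMM factors were 0.985 to 1.012, and kaempferol was compared with control by the quasi-likelihood test with Benjamini-Hochberg adjustment. Standard errors are those the test statistic implies. For pairs of libraries of a group, observed variance was 3.25 to 5.17 times counting variance, and each was counted as 1 replicate. Alternatives were DESeq2 1.42.0, other scaling factors and filters, a replicate block and leaving out each library. Copies were searched with blastn 2.17.0.

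The genes, the lists and the tests were chosen with earlier results of these data known. Named are all 10 genes, up to 3 called genes per direction and list with a mean of at least 5 CPM and no overlap, the 3 most similar genes per called gene, neighbours starting within 1000 bases or overlapping, and markers. Twnk, Crebbp, Prmt1, Creb1, Gabpb1, Sirt1, Prkaa2, Nrip1, Cycs, Acadm, Cs, mt-Co1 and genes with too few counts were named in addition, after their values were seen. Motifs were searched in RefSeq promoter windows of GRCm38.p6, the assembly of mm10. Some genes that this rule names are not reported here. The kinase, protein and animal assays of the study were not analysed here.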

Additional observations from a re-analysis of the deposited data

How the results depend on the processing

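The 10 genes were tested again under 12 alternatives, of which 6 left out a library each. No gene of the 10 was called higher under any of them, and no called value changed direction. RLE factors, upper-quartile factors, no filter on low counts, at least 10 counts in every library and DESeq2 each gave Pprc1 and Nrf1 as the 2 lower genes, and Ppargc1a was not tested where at least 10 counts were required in every library. Leaving out a library gave 1 to 3 lower genes, with Ppargc1b as the added one without kaempferol replicate 1. Upper-quartile factors gave 1 lower gene for mitochondrial DNA replication and transcription, 3 higher for mitochondrial RNA handling, 0 lower among targets of NRF1 or GABPA and 9 higher of the mitochondrial genome. DESeq2 gave 2 higher and 1 lower for mitochondrial DNA replication and transcription. At least 10 counts in every library gave 0 lower targets of NRF1 or GABPA. Without a library, the genes of mitochondrial DNA gave 0 to 3 higher and 1 to 2 lower calls, mitochondrial RNA handling 0 to 3 higher and 0 to 1 lower, partners and activators 5 to 8 lower, and targets of NRF1 or GABPA and of PGC-1α and ERRα 0 to 1 lower each. The cause was not tested for these changes.

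Replicate numbers did not pair the libraries: deviations of same-numbered libraries correlated at -0.025, -0.061 and -0.045, and no library correlated best with its own number. With the replicate number as a block, 1 of the 10 genes was lower (Pprc1, adjusted p = 0.0328, while Nrf1 had a log2 fold change of -0.22 and an adjusted p of 0.0517), 0 targets of NRF1 or GABPA were lower, and 1337 and 1413 of all tested genes were called higher and lower. Depth limits Ppargc1a, with 8 to 20 counts per library, more than the other 9 genes, which had 97 or more.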
